A study of Mus musculus with 62 samples.

Results

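The genes described here are 6 nuclear receptors of xenobiotic, bile acid, oxysterol and liver gene control (Nr1i2, Nr1i3, Rxra, Nr1h4, Nr1h3 and Hnf4a), a coactivator and a corepressor of such receptors (Ncoa1 and Ncor1), the electron donor of microsomal cytochromes P450 (Por) and the first enzyme of haem synthesis (Alas1). They were taken by mouse Entrez identifier, 10 of the 18821 genes listed in at least 1 of 3 tables of RNA sequencing counts. All 10 were listed for the liver, 9 for the striatum (not Hnf4a) and 8 for the prefrontal cortex (neither Hnf4a nor Nr1i2). The samples came from female C57BL/6 mice, an inbred laboratory strain, that were given the MARBLES mixture of polychlorinated biphenyls (PCBs, persistent industrial chemicals) by mouth at 0.1, 1 or 6 mg/kg, or vehicle alone. Vehicle, 0.1, 1 and 6 mg/kg groups had 4, 4, 6 and 6 liver libraries, and 4, 5, 6 and 6 libraries in each of the prefrontal cortex and the striatum. Age, length of dosing and hour of collection are not given in the sources used here, and neither is whether tissue was pooled. The comparisons ask how each gene differs between tissues, from vehicle at each dose, and between tissues in its response to 6 mg/kg.

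As background, PXR (Nr1i2) and CAR (Nr1i3) are receptors that bind or respond to foreign chemicals and switch on P450 enzymes, conjugating enzymes and transporters. CAR is held in the cytosol by a chaperone complex until it is released, and PCBs with several ortho chlorines are known activators of both. Each pairs on DNA with RXRα (Rxra), as do the bile acid receptor FXR (Nr1h4) and the oxysterol receptor LXRα (Nr1h3), while HNF4α (Hnf4a) binds as a pair with itself and maintains hepatocyte genes. P450 enzymes need haem, for which Alas1 sets the rate in the liver, and electrons, which Por passes to them from NADPH.

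Total counts ran from 7.38 to 10.2 M (M, 10⁶ counts) in the liver, from 8.72 to 12.1 M in the cortex samples and from 8.28 to 12.02 M in the striatum. Levels are given as CPM, counts per 10⁶ counts after scaling of the libraries within a tissue, and n is the number of libraries. The summed level of 8 hepatocyte markers was 79000 to 177000 CPM in every liver group. In the prefrontal cortex, where 5 of the 8 were listed, that sum stayed between 9.27 and 44.3 CPM, and the summed level of 7 neuronal markers was 6740 to 7930 CPM in its vehicle and 6 mg/kg libraries. The neuronal sum was 6.14 to 56.3 CPM in the livers. In the striatum the hepatocyte sum ran from 23.9 to 4130 CPM, with Alb at 0 or not listed, and the sum of 5 choroid plexus markers, which share Ttr with that list, from 22.4 to 4360 CPM. Nothing in the labels says that libraries of a group came from separately housed animals, so p-values measure the spread between these libraries.

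The 10 genes had 15 entries in the RefSeq promoter table (GRCm38.p6), and the 250 bases before a start are shown for 5 of them to show how their content of CG pairs, in capitals, varies. Nr1i2, Nr1i3 and Nr1h4 stand for the receptors, and Por and Alas1 are the enzymes. For Alas1, which has a pair of entries, the outermost start is printed. Sequences run 5′ to 3′ along the gene's strand.
Nr1i2, chr16:38294825-38295074, minus strand: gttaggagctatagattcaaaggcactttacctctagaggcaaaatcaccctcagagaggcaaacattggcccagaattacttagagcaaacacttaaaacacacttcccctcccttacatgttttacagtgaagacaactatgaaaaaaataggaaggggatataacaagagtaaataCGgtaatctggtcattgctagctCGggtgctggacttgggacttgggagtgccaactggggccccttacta
Nr1i3, chr1:171213720-171213969, plus strand: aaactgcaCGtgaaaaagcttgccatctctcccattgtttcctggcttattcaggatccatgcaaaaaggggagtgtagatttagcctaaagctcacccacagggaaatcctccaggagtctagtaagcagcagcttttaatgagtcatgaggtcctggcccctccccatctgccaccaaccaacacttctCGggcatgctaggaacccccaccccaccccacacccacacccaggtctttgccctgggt
Nr1h4, chr10:89506659-89506908, minus strand: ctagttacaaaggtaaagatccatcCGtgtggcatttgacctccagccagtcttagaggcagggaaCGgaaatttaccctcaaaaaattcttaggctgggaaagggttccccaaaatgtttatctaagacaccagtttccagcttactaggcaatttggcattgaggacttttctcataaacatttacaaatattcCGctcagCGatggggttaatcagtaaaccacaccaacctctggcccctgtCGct
Por, chr5:135688895-135689144, plus strand: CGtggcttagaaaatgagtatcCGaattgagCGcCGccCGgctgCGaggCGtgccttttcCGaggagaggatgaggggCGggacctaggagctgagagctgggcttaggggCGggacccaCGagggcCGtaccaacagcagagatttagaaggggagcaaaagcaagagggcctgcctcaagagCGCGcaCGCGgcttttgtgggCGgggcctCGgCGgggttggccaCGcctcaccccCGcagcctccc
Alas1, chr9:106247955-106248204, minus strand: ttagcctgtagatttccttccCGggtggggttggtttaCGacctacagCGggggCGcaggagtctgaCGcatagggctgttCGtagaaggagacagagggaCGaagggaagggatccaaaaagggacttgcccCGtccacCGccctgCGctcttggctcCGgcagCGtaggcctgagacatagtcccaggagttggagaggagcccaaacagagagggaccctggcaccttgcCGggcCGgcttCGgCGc

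The CG pair (read the same on both strands) occurred 2 times before the start of Nr1i2, 2 times before Nr1i3 and 5 times before Nr1h4, against a median of 6 over the 32851 promoters of the table. Por had 21 and Alas1 had 16, and 42 before its inner start. Of all promoters, 29% had as few CG pairs as Nr1i2, and 16.3% had as many as Por. Ncoa1 had 40, the outer Ncor1 start 34 and the outer Rxra start 40, while the inner starts of Ncor1 and Rxra had 2 and 1. Hnf4a had 3 and 4 and Nr1h3 had 7 and 8 before their starts. The E-box CACGTG (a palindrome, in whose middle lies a CG pair) was found in 1 member window, 244 bases before the Nr1i3 start, and in 6.02% of all promoters. These counts describe the windows and were set against no measurement of binding.

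Among the vehicle animals the liver held the most of the receptor, reductase and haem enzyme transcripts and the least of both coregulators. Per kilobase of the longest transcript, with all tissues on one scale, liver Por averaged 222 CPM per kb ± 34.2 (SD, n = 4), Hnf4a 152 ± 28.4 and Nr1i3 140 ± 16.3. Nr1h3 followed at 106 ± 13.6 CPM per kb, Alas1 at 104 ± 29.5, Nr1h4 at 94.3 ± 6.37 and Rxra at 83.9 ± 11.1. Lower down stood Nr1i2 at 45 ± 5.58 CPM per kb, Ncor1 at 9.17 ± 1.13 and Ncoa1 at 2.58 ± 0.59. In that order the ranges of neighbours overlapped down to Rxra, except between Nr1i3 (lowest 123) and Nr1h3 (highest 122), whereas Rxra, Nr1i2, Ncor1 and Ncoa1 were each clear of the next.

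In the prefrontal cortex the order was led by Por at 33.7 CPM per kb ± 5.16 (SD, n = 4), Ncor1 at 25.7 ± 2.28 and Ncoa1 at 19.0 ± 1.97. Alas1 at 15.6 ± 1.27 CPM per kb and Nr1i3 at 14.5 ± 2.54 came next, and their ranges overlapped. The striatum gave the same leading gene, with Por at 44.5 CPM per kb ± 6.75, Ncor1 at 19.8 ± 2.1, Nr1i3 at 17.2 ± 3.01 and Ncoa1 at 15.9 ± 1.12. Nr1h3 was low in both regions, at 1.08 ± 0.361 CPM per kb in prefrontal cortex and 1.61 ± 0.159 in striatum. Nr1h4 reached 5 counts in all over the 4 vehicle libraries of the prefrontal cortex and 9 over those of the striatum. Nr1i2 had 0 counts in the 4 striatum vehicle libraries and 10 in the 21 striatum libraries together.

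**Figure D1:**
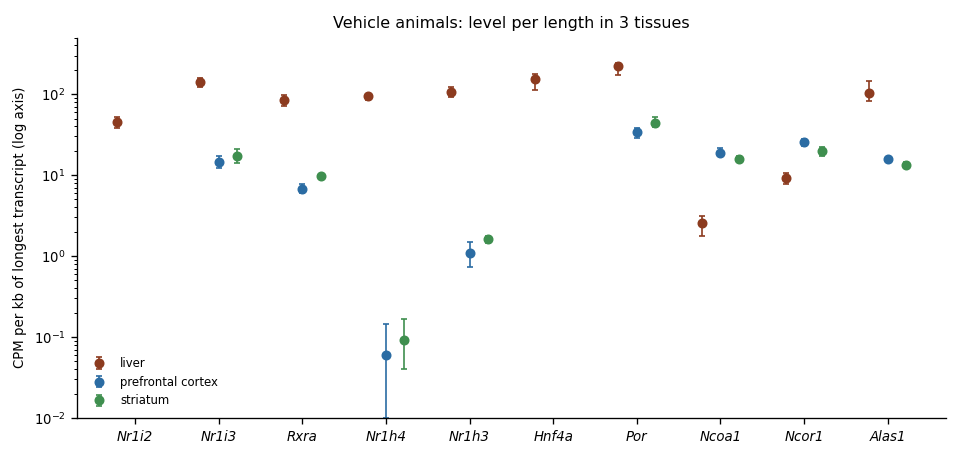
Level per kilobase of the longest transcript (log axis) in vehicle animals, with points at the mean of 4 libraries and bars from the lowest to the highest library. Bars that reach the bottom edge include a library at 0 counts, and genes without a point in a tissue were at 0 or not listed there. The receptors, Por and Alas1 are highest in liver, while Ncoa1 and Ncor1 are highest in both brain regions.

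Vehicle liver and vehicle prefrontal cortex were compared for 7 genes that had enough counts in both tissues, and 7 passed (edgeR quasi-likelihood test, adjusted p under 0.05 over all genes), where 84.9% of all tested genes passed. Of them 5 were higher in liver (38.9% of all genes) and 2 were lower in liver (46% of all genes). On the log2 scale the differences were 6.58 (SE 0.195) for Nr1h3, 3.60 (0.148) for Rxra and 3.22 (0.153) for Nr1i3. For Alas1 the value was 2.68 (0.162) and for Por 2.67 (0.159), and the adjusted p of these 5 was at most 1.51e-09. Ncoa1 was lower in liver by a log2 difference of -2.91 (SE 0.165) and Ncor1 by -1.53 (0.13), with adjusted p of 7.36e-10 and 6.33e-08. Nr1h4 entered the fit through the liver alone, with 4158 counts over the vehicle livers against 5, so no test of it is given.

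Against the striatum 7 of the 7 genes with enough counts in both tissues passed, where 83.7% of all genes did, with 5 higher in liver (38.1% of all genes) and 2 lower (45.6%). Nr1h4 (9 counts in the striatum) and Nr1i2 entered through the liver alone. Nr1i2 was at least 1850-fold higher in liver, taking 3 counts over the 4 striatum libraries as the limit that a count of 0 allows. Between the brain regions, 3 of 7 genes passed, where 22.2% of all genes did. Rxra was higher in striatum by 0.53 on the log2 scale (SE 0.0974, adjusted p 0.00154 in edgeR), Por by 0.40 (0.128, adjusted p 0.0388), and Ncor1 was lower by -0.38 (0.103, adjusted p 0.0163). Only Rxra passed when any single one of animals 3, 4 or 7 was left out of both regions, and Rxra and Ncor1 passed without animal 8. In whole tissue, fewer cells of a type and less RNA per cell cannot be told apart.

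Nr1i2 was the 1 member of 10 that passed in the liver at 6 mg/kg against vehicle, where 2.80% of all 12968 tested genes passed. PXR, its product, is best known as the inducer of Cyp3a genes. The 4 vehicle livers gave 63.25, 63.45, 76.22 and 57.72 CPM, and the 6 livers at 6 mg/kg 133.0, 68.97, 86.02, 93.05, 116.7 and 139.9 CPM. At 6 mg/kg, 5 of 6 livers stood above every vehicle liver, and animal 56, at 68.97 CPM, lay inside the vehicle range. The log2 fold change was 0.71 (SE 0.187, adjusted p 0.0441 in edgeR). At 1 mg/kg the lowest, median and highest livers had 67.6, 82.3 and 97.9 CPM, a log2 fold change of 0.34 (SE 0.185, adjusted p 0.613). At 0.1 mg/kg the 4 livers had 75.34, 58.08, 77.13 and 67.02 CPM, a log2 fold change of 0.09 (SE 0.201, adjusted p 0.994).

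Over the 4 dose ranks Nr1i2 rose by 0.24 log2 units per step (SE 0.0564, adjusted p 0.0229 in edgeR), again as the 1 member of 10 that passed (4.81% of all genes). DESeq2 called Nr1i2 and Nr1i3 over dose rank, where it called 10% of all genes. The group means were 65.2, 69.4, 82.4 and 106.3 CPM in order of dose, and each neighbouring pair of groups overlapped. The call at 6 mg/kg was narrow. It did not hold without any 1 of vehicle animals 3, 4, 7 and 8 or of 6 mg/kg animals 52, 53, 54 and 58 (adjusted p up to 0.152), and it held without animals 55 or 56 (down to 0.0137). The slope over dose rank passed in 17 of 20 such fits, and did not without vehicle animal 3 or 6 mg/kg animals 52 or 58.

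The circadian clock genes moved with the same groups. A clock index, the log2 level of Dbp less that of Arntl, ran from 2.04 to 5.45 in the vehicle livers and from 6.58 to 8.48 at 6 mg/kg, without overlap. Dbp, a clock output factor, was 41.45 and 44.56 CPM in vehicle animals 3 and 4, against 130.7 and 180.7 CPM in animals 7 and 8 and at least 175.2 CPM in every dosed liver. Without vehicle animal 3 or 4, 11 and 3 genes passed at 6 mg/kg in place of 363. With the clock index as a covariate the Nr1i2 log2 fold change was 0.48 (SE 0.318, adjusted p 1) and none of all genes passed in the edgeR fit, with 473 at an unadjusted p under 0.05. As the index did not overlap between these groups, its part and that of the dose cannot be told apart. Within dose groups, Nr1i2 and the clock index correlated at r = 0.25 over 20 livers (rho 0.28, permutation adjusted p 0.464 and 0.433).

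**Figure D2:**
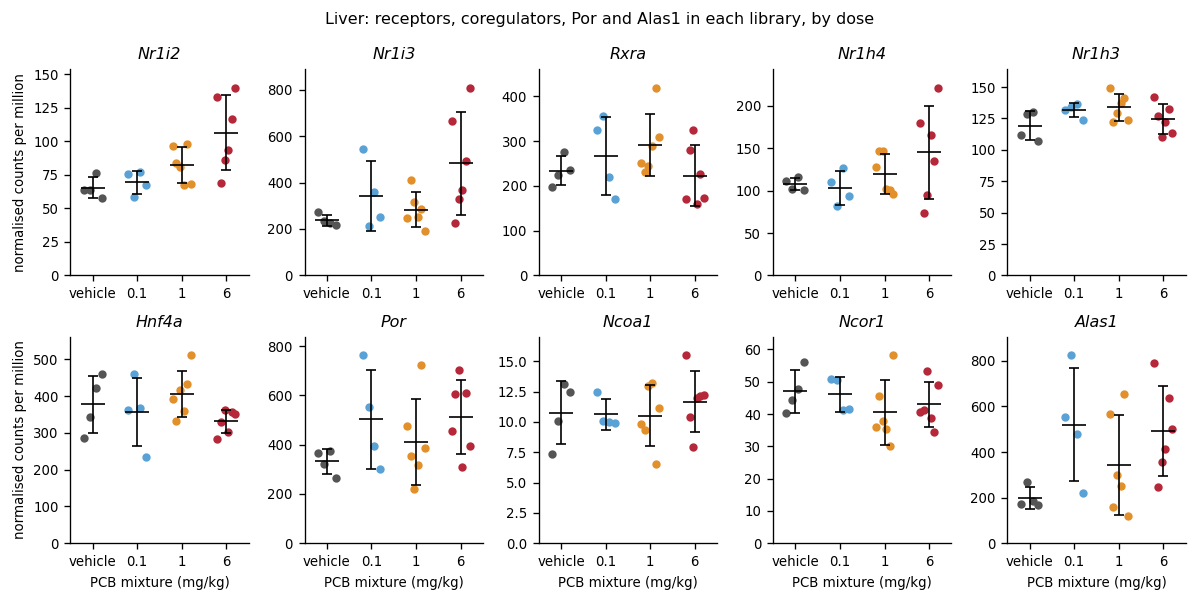
Liver level of each gene (CPM, linear axis from 0) by dose of the PCB mixture. Points are libraries, the horizontal bar is the group mean and the error bar the SD (n = 4, 4, 6 and 6). Nr1i2 climbs over the doses from a mean of 65.2 to 106.3 CPM, while Nr1i3, Nr1h4 and Alas1 spread widely at 6 mg/kg and Nr1h3 stays between 107 and 149.6 CPM in all libraries.

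Nr1i3 and Alas1 had larger fold changes than Nr1i2 at 6 mg/kg and did not pass, and their livers at 6 mg/kg spread over a wider range. Nr1i3 had 271.1, 235.2, 225.1 and 215.2 CPM in vehicle and 665.8, 227.5, 329.3, 366.1, 494.1 and 808.9 CPM at 6 mg/kg. Animal 56 was again within the vehicle range, and animals 52 and 58 were the highest, as for Nr1i2. The log2 fold change was 1.03 (SE 0.311, adjusted p 0.0698 in edgeR), and 0.53 (0.331) for the lowest dose and 0.26 (0.304) for 1 mg/kg. DESeq2, in which 8.78% of all genes passed, placed Nr1i3 under the threshold (adjusted p 0.0174), as did edgeR without animal 55 or 56 (0.0373 and 0.0217).

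The Nr1i3 count cannot be taken as CAR transcript alone. In the GENCODE vM21 annotation of GRCm38, Nr1i3 (chr1:171213934-171218845, plus strand) shares 3304 exonic bases with Tomm40l, a gene of the mitochondrial import channel family on the minus strand. That is 74.85% of the Nr1i3 exon bases and 64.34% of those of Tomm40l. Whether reads were assigned by strand is not given in the sources used here, so reads of these genes cannot be told apart. Tomm40l had 279.0, 251.5, 236.8 and 199.1 CPM in the vehicle livers of animals 8, 7, 4 and 3, nearly the Nr1i3 values. The ratio of Tomm40l to Nr1i3 differed from 1 by at most 0.1 in 14 of 20 livers and reached 2.98 in 1 liver at 1 mg/kg. In the brain the ratio was 1.16 to 1.57 in prefrontal cortex and 1.1 to 1.6 in striatum. Within dose groups the genes correlated at r = 0.77 in the liver (rho 0.82, permutation p 0.00011 and 0.00012, adjusted p 0.00825 and 0.009 over 75 relations), and at r = 0.81 without the 2 most distant livers. Tomm40l itself had a log2 fold change of 1.23 at 6 mg/kg (SE 0.424, adjusted p 0.095 in edgeR). The brain levels of Nr1i3, 41.22 to 57.86 CPM in vehicle prefrontal cortex, carry the same doubt.

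**Figure D3:**
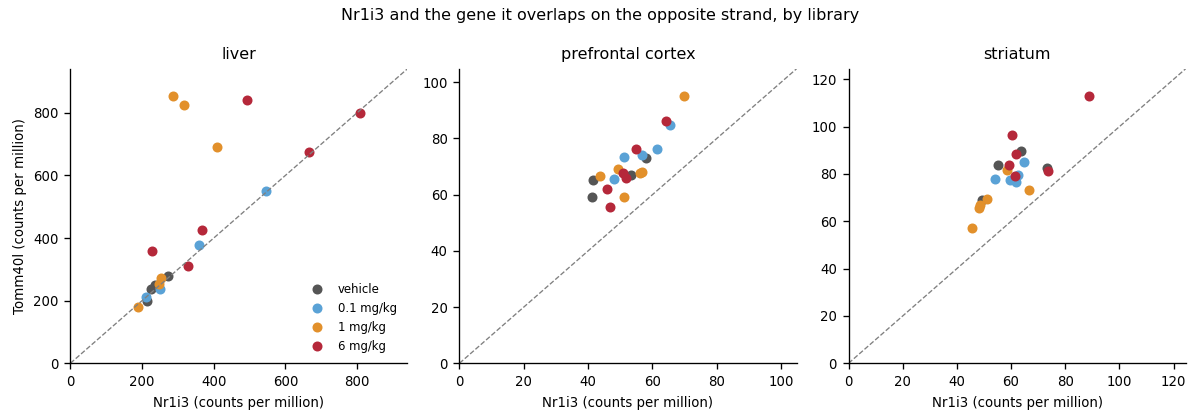
Tomm40l against Nr1i3 in every library of each tissue (CPM), coloured by dose, with a dashed line of equality. Most livers lie along the line, livers at 1 or 6 mg/kg reach up to 2.98 times the Nr1i3 level, and the brain libraries lie above it by 1.1 to 1.6 times.

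Alas1 showed the largest liver fold change among the 10 genes at every dose, without passing at any. Vehicle livers had 173.5, 266.5, 187.1 and 166.0 CPM, and livers at 6 mg/kg had 792.1, 246.0, 357.2, 413.3, 635.9 and 499.3 CPM. At 0.1 mg/kg the 4 livers held 555.4, 823.3, 479.2 and 221.6 CPM. At 1 mg/kg the lowest, median and highest were 121.0, 275.3 and 655.5 CPM. All 3 dosed groups overlapped with vehicle, and the lowest of all 20 livers was at 1 mg/kg. The log2 fold changes were 1.39 (SE 0.469, adjusted p 0.994 in edgeR), 0.79 (0.43, adjusted p 0.613) and 1.31 (0.439, adjusted p 0.0904) from the lowest to the highest dose, and the unadjusted p at 0.1 mg/kg was 0.00734. DESeq2 gave Alas1 an adjusted p of 0.0227 at 6 mg/kg, and edgeR one of 0.0435 without animal 56. With the clock index as a covariate the log2 fold change at 6 mg/kg was 0.03 (SE 0.687). Within dose groups Alas1 and the clock index correlated at r = 0.49 (rho 0.53, permutation adjusted p 0.121 and 0.0914).

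Por likewise was higher on average at each dose and did not pass. Its vehicle livers ranged from 266.9 to 373.6 CPM and its livers at 6 mg/kg were 454.5, 604.0, 704.3, 308.2, 608.8 and 395.5 CPM. At 6 mg/kg, 5 of 6 livers were above all vehicle livers, animal 54 being the exception. The log2 fold change was 0.63 (SE 0.297, adjusted p 0.199 in edgeR) at the highest dose, 0.31 (0.295) for 1 mg/kg and 0.60 (0.321) for the lowest. The highest Por level of all livers, 762.4 CPM, was in animal 29 at 0.1 mg/kg.

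FXR transcript (Nr1h4, chr10:89454234-89533645) widened in spread without a shift that passed. Vehicle livers had 111.8, 102.4, 115.7 and 100.6 CPM, and livers at 6 mg/kg 180.0, 73.92, 95.35, 165.6, 134.9 and 221.7 CPM. At 6 mg/kg, 4 livers were above all vehicle livers and 2 (animals 55 and 56) were below all of them. The log2 fold change was 0.43 (SE 0.236, adjusted p 0.261 in edgeR). The 3 remaining receptors kept close to vehicle at 6 mg/kg: Rxra had a log2 fold change of -0.07 (SE 0.235), Nr1h3 of 0.06 (0.125) and Hnf4a of -0.19 (0.182). Rxra covered 160.3 to 324.8 CPM at 6 mg/kg against 198.4 to 276.3 CPM in vehicle. Nr1h3 was the steadiest, with 110.6 to 141.8 CPM against 107.0 to 130.0 CPM. Hnf4a covered 283.7 to 362.5 CPM against 285.9 to 459.0 CPM. The coactivator Ncoa1 (SRC-1), with a mean of 10.75 CPM in vehicle livers, had a log2 fold change of 0.11 (SE 0.212), and the corepressor Ncor1, at 47.10 CPM, of -0.13 (0.171).

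Of the 10 genes, 7 had a positive estimate at 6 mg/kg, a share that was not counted over all genes. The median log2 fold change of the 10 was 0.27 beside 0.02 over all tested genes. An unadjusted p under 0.05 in edgeR was found for 4 of the 10 and for 24.2% of all genes. At 1 mg/kg 0 of 10 passed in edgeR, 0 had an unadjusted p under 0.05 and 0 passed in DESeq2, where the shares of all genes were 0%, 8.44% and 0.185%. At 0.1 mg/kg 0 of 10 passed in edgeR or DESeq2 and 1, Alas1, had an unadjusted p under 0.05. There 0.0154% of all genes passed in edgeR, 0.0925% passed in DESeq2 and 4.10% had an unadjusted p under 0.05. These comparisons share the same 4 vehicle livers. Against the 0.1 mg/kg group in place of vehicle, Nr1i2 was higher at 6 mg/kg by 0.62 on the log2 scale (SE 0.186, adjusted p 0.198 in edgeR) and no member passed (0.0386% of all genes), with 2 at an unadjusted p under 0.05 (12.8% of all genes).

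**Figure D4:**
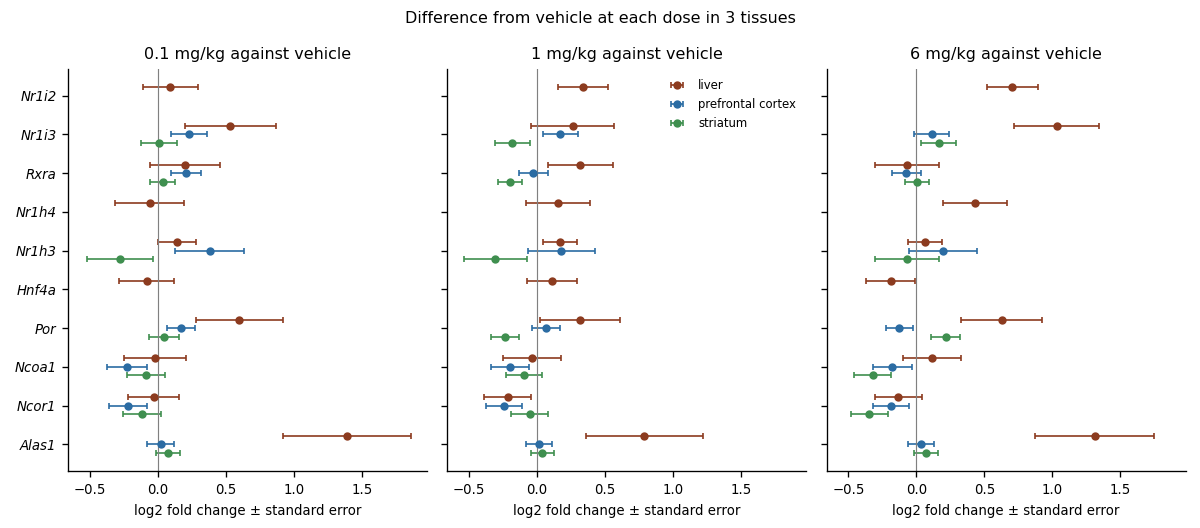
Log2 fold change against vehicle (points) with its standard error (bars) for each gene, dose and tissue, from the edgeR fit of each tissue. At 6 mg/kg the liver values of Nr1i2, Nr1i3, Por and Alas1 lie between 0.63 and 1.31, while every tested brain value lies between -0.35 and 0.21.

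Cyp2b10, the classical CAR target, was lowest in the livers of the 6 mg/kg group that held the most Nr1i2, Nr1i3 and Nr1h4 transcript. It stood at 0.739 to 2.227 CPM in vehicle livers and at 26.48, 215.5, 247.1, 51.14, 50.17 and 11.38 CPM in animals 58, 56, 55, 54, 53 and 52. Animals 52 and 58, lowest in Cyp2b10, were the highest of their group in Nr1i2, Nr1i3 and Nr1h4. Animals 55 and 56, highest in Cyp2b10, were the lowest in all 3 receptors and the highest in Rxra. Over all 20 livers, with dose group means removed, Cyp2b10 correlated with Nr1h4 at r = -0.82 (rho -0.72, permutation adjusted p 0.0161 and 0.0374 over 75 relations). For Rxra r was 0.76 (rho 0.78, adjusted p 0.015 and 0.0255) and for Por 0.67 (rho 0.73, adjusted p 0.0202 and 0.0267). These relations gave r of -0.72, 0.73 and 0.67 without the 2 livers most distant in Cyp2b10. Nr1i3 at r = -0.63 (rho -0.56, adjusted p 0.101 and 0.152) and Nr1i2 at -0.55 (rho -0.40, adjusted p 0.234 and 0.355) did not pass, nor did Alas1 at -0.11 (rho -0.12, adjusted p 0.811 and 0.776). The points share libraries and scaling, and the relations were computed after the values had been seen.

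**Figure D5:**
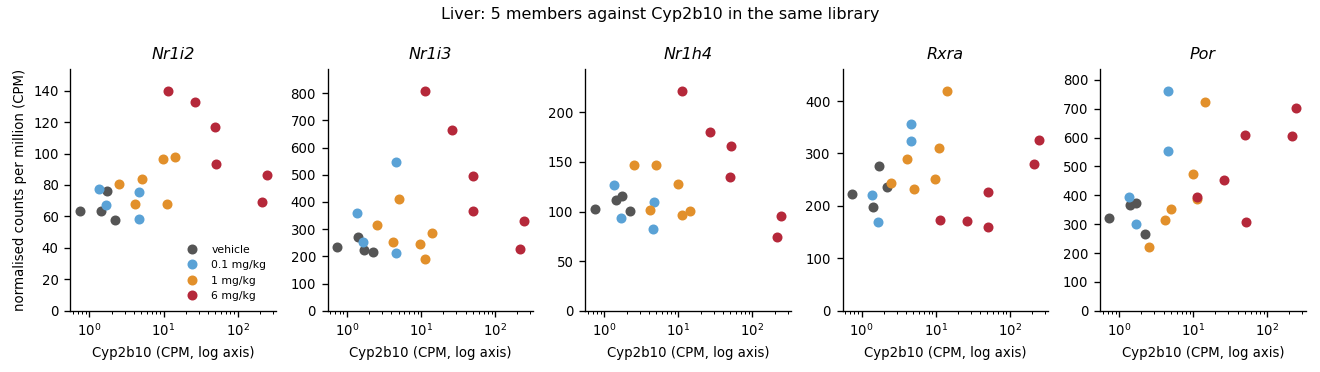
Liver level of 5 genes (CPM, linear axis) against Cyp2b10 in the same library (CPM, log axis), coloured by dose. Within the 6 mg/kg livers, Nr1i2, Nr1i3 and Nr1h4 are highest where Cyp2b10 is 11.38 or 26.48 CPM and lowest where it is 215.5 or 247.1 CPM, and Rxra runs the other way.

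The genes fell into sets that varied together within dose groups of the liver. Nr1i3 followed Nr1h4 (r = 0.82, rho 0.78, permutation adjusted p 0.015 and 0.0267), and Nr1i2 followed Nr1i3 (r = 0.79, rho 0.72, adjusted p 0.015 and 0.0267) and Nr1h4 (r = 0.78, rho 0.71, adjusted p 0.0202 and 0.0381). Rxra followed Por (r = 0.79, rho 0.77, adjusted p 0.015 and 0.0255) and Hnf4a (r = 0.65, rho 0.70, adjusted p 0.0211 and 0.0255), and ran against Nr1h4 (r = -0.67, rho -0.70, adjusted p 0.0397 and 0.0422). Nr1h3 followed Alas1 (r = 0.65, rho 0.66, adjusted p 0.02 and 0.0267). Without the 2 livers most distant in 1 gene of the pair, r fell to 0.681 at most and 0.545 at least for the positive pairs other than Rxra and Por (0.775), and was -0.661 for the negative pair.

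Among all 12968 tested liver genes, those most like each member over the 20 livers, dose group means removed, were named as a description with no test. For Nr1i2 they were Plcxd1, Fhod1 and Polr1b (r of 0.87, 0.85 and 0.84), and for Nr1i3 Lgals4, Il15ra and Hsf2 (0.92, 0.92 and 0.89). Rxra was nearest to Stx3, Scamp3 and Pdzk1 (0.94, 0.93 and 0.93), and Nr1h4 to Zc3h13, Xylb and Srek1 (0.92 each). Por was nearest to Fgf1, Gne and Apeh (0.90, 0.86 and 0.86), Hnf4a to Alkbh5 and Cacul1 (0.85 and 0.82), and Alas1 to Alpl, Ppil2 and Usp2 (0.84, 0.82 and 0.82). Ncoa1 was nearest to Ppfia1, Ep400 and Aak1 (0.81, 0.79 and 0.79), and Ncor1 to Vps13b, Prrc2c and Sp3 (0.93, 0.89 and 0.89). Nr1h3 was nearest to Clec4f, a Kupffer cell lectin, and C1qa, a macrophage complement gene, then Tpgs1 (0.84, 0.77 and 0.75). The summed level of 9 Kupffer cell or macrophage markers was 162 to 242 CPM in vehicle livers and 228 to 448 CPM at 6 mg/kg, none of the 9 being at 0 in either group. Of those markers 1 passed at 6 mg/kg, Clec4f, with a log2 fold change of 0.93 (SE 0.226, adjusted p 0.0333 in edgeR), and the part of these cells in the Nr1h3 level was not tested.

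Several known targets of CAR and PXR rose at 6 mg/kg. Of 39 tested targets 7 rose and 0 fell, with a median log2 fold change of 0.11 beside 0.02 over all genes, of which 2.80% passed. Cyp2b10 rose by 6.01 log2 units (SE 0.912, adjusted p 0.00592 in edgeR), the carboxylesterase Ces2a by 1.01 (0.173, adjusted p 0.00932) and Cyp3a59 by 1.20 (0.251, adjusted p 0.0197). Cyp2c50 rose by 1.16 (0.245) and the conjugate exporter Abcc3 by 1.07 (0.238), while Cyp3a11, the main PXR target P450, had 0.20 (0.2, adjusted p 0.552) and Cyp2c29 0.33 (0.744). Reads of Cyp2c and Cyp3a genes may be split among near-identical copies. The 2.80% belongs to the fit of all libraries and is no yardstick for the refits given next. Among all genes the number passing moved as well in most refits, and none passed with the clock index. Changes in the target count therefore cannot be read as particular to CAR and PXR targets. The number of passing targets was 0 without vehicle animal 4, 1 without vehicle animal 3, 4 without vehicle animal 7 or 6 mg/kg animal 58, 10 without animal 56 (8 higher and 2 lower), 2 with the 2 groups alone, and 0 with the clock index as a covariate (7 at an unadjusted p under 0.05).

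Targets of the other receptors mostly did not pass. With all libraries and no change of setting, 2.80% of all genes passed in edgeR, 24.2% had an unadjusted p under 0.05 and 8.78% passed in DESeq2. These shares do not belong to the edgeR fits below that leave out an animal or change a setting. In most such fits the number of all genes passing moved too. None of 19 FXR targets and bile acid genes passed in edgeR (4 at an unadjusted p under 0.05, 1 in DESeq2), with a median log2 fold change of -0.46. The FXR-induced repressor Nr0b2 (SHP) had -0.50 (SE 0.349), the bile acid synthesis enzyme Cyp7a1 -0.82 (0.459) and the bile salt exporter Abcb11 -0.28 (0.175). Of 17 LXR targets 1 rose, the sterol exporter subunit Abcg5 by 1.06 (SE 0.273, adjusted p 0.0413 in edgeR), with 6 at an unadjusted p under 0.05, 3 passing in DESeq2 and a list median of 0.34. With an offset for GC content and length, or with the 2 groups alone, 0 passed in edgeR. Srebf1, which drives fatty acid synthesis, had 1.10 (0.393, adjusted p 0.106) and the cholesterol exporter Abca1 -0.07 (0.193). None of 24 HNF4A targets passed in edgeR (9 at an unadjusted p under 0.05, 2 in DESeq2), with a median of -0.17. Without animal 56, 3 HNF4A targets (1 higher and 2 lower) and 1 of the FXR list passed, and without animal 55, 2 and 1 did. Without animal 53, or among genes with a mean of at least 10 counts, 1 HNF4A target passed.

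Around Por and Alas1, none of 20 P450 redox partners and haem synthesis genes passed in edgeR (5 at an unadjusted p under 0.05, 2 in DESeq2), with a median of -0.02. Without animal 56, 4 passed (3 higher and 1 lower), and without animal 55, 3 did. Alad, the enzyme after Alas1, had a log2 fold change of 0.82 (SE 0.272, adjusted p 0.0875), the electron carrier Cyb5a 0.35 (0.221), its reductase Cyb5r3 -0.26 (0.203) and the haem-degrading Hmox1 0.25 (0.357). Among receptor partners and coregulators, Rxrb had 0.36 (SE 0.174, adjusted p 0.205 in edgeR), Ncoa2 -0.17 (0.245) and Ppargc1a -0.04 (0.223). None of 22 other xenobiotic and metabolic receptors passed in edgeR (5 unadjusted, 2 in DESeq2, 1 without animal 56, 2 without animal 55, and 1 with 1 surrogate variable), and none of 11 genes of the CAR cytosolic complex (6 unadjusted, 1 in DESeq2). Of 19 clock genes 6 rose and 1 fell, with Tef, Per3, Dbp and Usp2 higher by 1.42, 2.09, 1.68 and 1.88 log2 units and Arntl lower by -1.98 (adjusted p from 0.013 to 0.0333). With the 2 groups alone 1 clock gene passed. Without vehicle animal 3 or 4 no LXR target or clock gene passed in edgeR, and without vehicle animal 7 or 6 mg/kg animals 52, 53, 54 or 58 no LXR target did. With the clock index as a covariate 0 LXR targets passed. That fit says nothing of the clock list, which holds both genes of the index.

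In the prefrontal cortex, 7 of the genes could be tested and 0 passed at any dose in edgeR or DESeq2, with 0 at an unadjusted p under 0.05 at each dose. The share of all genes that passed there was 0% for the highest dose, 0% for 1 mg/kg, 0% for the lowest dose and 0.0202% over dose rank, where again 0 of 7 members did. In DESeq2 that share was 0.168%, 0% and 0.00674% from the highest to the lowest dose, and at an unadjusted p under 0.05 it was 9.27%, 8.29% and 6.43%. At 6 mg/kg the log2 fold changes ran from -0.19 for Ncor1 (SE 0.135) to 0.20 for Nr1h3 (0.247). Alas1 was nearly level, at 54.99 to 64.25 CPM in vehicle and 54.95 to 71.46 CPM at 6 mg/kg, a log2 fold change of 0.04 (SE 0.0951).

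In the striatum 0 of 7 passed at 6 mg/kg in edgeR or DESeq2, where 0% and 0.205% of all genes did. An unadjusted p under 0.05 was found for 2 of 7, the coregulators, and for 15.7% of all genes. Ncoa1 had 144.0, 131.1, 146.0 and 126.4 CPM in vehicle and 129.2, 120.4, 115.4, 63.74, 123.4 and 104.9 CPM at 6 mg/kg, a log2 fold change of -0.32 (SE 0.134, adjusted p 0.261 in edgeR). Ncor1 had 235.7, 203.0, 220.1 and 183.6 CPM in vehicle and 180.8, 175.9, 163.1, 98.83, 185.7 and 189.5 CPM at 6 mg/kg, a log2 fold change of -0.35 (0.135, adjusted p 0.241). The summed level of 7 neuronal markers was 4090 to 5310 CPM in vehicle and 3620 to 4180 CPM at 6 mg/kg, and its part in these values was not tested. For both coregulators the groups overlapped and animal 54 was far below the rest. Without it the values were -0.21 and -0.23, and with an offset for GC content and length -0.17 and -0.16. At 1 mg/kg 0 of 7 passed and 2, Rxra at -0.20 (SE 0.0871) and Por at -0.24 (0.105), had an unadjusted p under 0.05, where 0% of all genes passed and 7.36% had such an unadjusted p. At 0.1 mg/kg 0 of 7 passed and 0 had an unadjusted p under 0.05 (0% and 2.53% of all genes), and over dose rank 0 of 7 passed (0% of all genes) with 2 unadjusted (13.1% of all genes).

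Within dose groups of the prefrontal cortex, Ncoa1 and Ncor1 rose and fell together (r = 0.96, rho 0.94, permutation adjusted p 0.000175 for each over 35 relations). They ran against Nr1i3 (r = -0.83 for both, rho -0.81 and -0.83, adjusted p at most 0.00021). Tomm40l, which overlaps Nr1i3, had nearly the same relations (r = -0.81 with Ncoa1 and -0.80 with Ncor1, rho -0.81 and -0.83). It followed Nr1i3 in that tissue (r = 0.82, rho 0.81), with permutation adjusted p of these 3 relations at most 0.0004. The Nr1i3 relations are therefore not those of CAR transcript alone. Nr1i3 followed Por there (r = 0.82, rho 0.83, adjusted p 0.0004 and 0.00065). In the striatum Ncoa1 and Ncor1 again correlated (r = 0.93, rho 0.80, adjusted p 0.00595 and 0.0161), at r = 0.74 without the 2 most distant libraries. In the prefrontal cortex 5 of 7 genes also varied with the clock index, with adjusted p of at most 0.00831 for r and 0.0167 for rho. Por (r = 0.67, rho 0.62), Nr1i3 (0.67, rho 0.66) and Alas1 (0.64, rho 0.58) followed it, and Ncor1 (-0.66, rho -0.70) and Ncoa1 (-0.54, rho -0.56) ran against it. Without the 2 most distant libraries r was 0.67, 0.70, 0.67, -0.71 and -0.64 in that order. In the striatum 0 of 7 passed, with r from -0.52 for Ncoa1 (rho -0.30, adjusted p 0.323 and 0.776) to 0.60 for Nr1i3 (rho 0.52, adjusted p 0.142 and 0.201). The longest transcripts of Ncoa1 and Ncor1 measure 7329 and 9037 bases with a GC content of 48.71% and 48.47%, against 2980 bases and 52.99% for Nr1i3 and 2636 bases and 58.35% for Por, and the part of length or base content in the relations of the coregulators was not tested.

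The effect of 6 mg/kg was then compared between tissues by an interaction term. For liver against prefrontal cortex 0 of the 7 genes with enough counts in both tissues passed in edgeR (0.899% of all genes), 3 had an unadjusted p under 0.05 (20% of all genes) and 1, Alas1, passed in DESeq2 (6.54% of all genes). Alas1 came closest, its log2 fold change being larger in liver by 1.25 (SE 0.323, adjusted p 0.0627 in edgeR), followed by Por at 0.74 (0.271, adjusted p 0.145) and Nr1i3 at 0.89 (0.348, adjusted p 0.162). Without animal 55 or 56 Alas1 passed (adjusted p down to 0.0234), and without others its adjusted p reached 0.184. For liver against striatum 0 of 7 such genes passed in edgeR (0.0277% of all genes), 2 had an unadjusted p under 0.05 (14.3%) and 1, Alas1, passed in DESeq2 (adjusted p 0.036, with 0.927% of all genes passing). The Alas1 difference was 1.22 (SE 0.326, adjusted p 0.179 in edgeR). For striatum against prefrontal cortex 0 of 7 passed in edgeR or DESeq2 and 1, Por at 0.33 (SE 0.144, adjusted p 0.746), had an unadjusted p under 0.05, where 0% of all genes passed and 6.43% had such an unadjusted p.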

How the data were processed

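RNA sequencing counts of 20 liver, 21 prefrontal cortex and 21 striatum libraries were used as the authors deposited them, as raw counts in a single table for each tissue, with Entrez identifiers. Reads were checked with FastQC and aligned with HISAT2 to mm10, per the submitters' processing notes. The counting tool, its annotation and its use of strand are not given in the sources used here, and the labels' protocols name poly(A) capture or ribosomal RNA removal without saying which. Samples were grouped by tissue and dose label. The lowest total of a listed gene was 10 counts.

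Each tissue was fitted with edgeR 4.0.16 (R 4.3.3): filterByExpr, TMM scaling, all dose groups in 1 robust quasi-likelihood fit. Interactions were fitted on vehicle and 6 mg/kg libraries from both tissues. Benjamini-Hochberg adjustment ran over all tested genes, with a threshold of 0.05, and the standard error is the log2 fold change over the square root of F. Log2 CPM used a prior count of 2. Correlations used log2 CPM minus the dose group mean, with 100000 two-sided permutations within dose groups, adjusted per tissue. Levels per kb used the longest GENCODE vM21 transcript. Alternatives were DESeq2 1.42.0, its size factors in edgeR, no filter, a mean of at least 10 counts, the clock index, 1 surrogate variable (sva 3.50.0), a GC and length offset (known for 96.5% of tested liver genes), the 2 groups alone, 0.1 mg/kg as reference, a slope over mg/kg, a block on animal number, and each replicate left out. The fits were tested on simulated data. All 10 members are named, with at most 4 passing genes per list by smallest p, fixed examples of each list, and 3 genes most like each member, some of which are not reported here. Tomm40l was named for its overlap and Clec4f after its values were seen. The members and lists were chosen with earlier results of these data known.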

Additional observations from a re-analysis of the deposited data

Results flagged for a closer look

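A search for single libraries that stood apart covered 96 combinations of gene, tissue and dose group and found 4, where chance alone gives about 1 in 20 (4.8). Striatum animal 54 at 6 mg/kg was the lowest of its 6 libraries for both coregulators, at 63.74 CPM for Ncoa1 and 98.83 CPM for Ncor1. The gap to the next library was 0.629 and 0.708 of the group's range. These are the genes whose striatum estimates at 6 mg/kg were lowest, and without this library the log2 fold changes were -0.21 and -0.23 in place of -0.32 and -0.35. In the liver, Ncoa1 stood at 12.47 CPM in animal 29 at 0.1 mg/kg, above 3 libraries between 9.909 and 10.07 CPM. That animal also held the highest Por level of all livers. In the striatum, Rxra was 60.23 CPM in animal 41 at 1 mg/kg, the highest of its group. Rxra at 1 mg/kg had an unadjusted p of 0.032 with that library included.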

How the results depend on the processing

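The number of members passing in the liver at 6 mg/kg, 1, was 3 with DESeq2 (Nr1i2, Nr1i3 and Alas1) and 0 without a filter on low counts, with the clock index, 1 surrogate variable, an offset for GC and length, the 2 groups alone or 0.1 mg/kg as reference. It ranged from 0 to 3 with a replicate left out. Over dose rank the number, 1, was 2 with DESeq2 (10% of all genes), 0 with the clock index or the surrogate variable, and from 0 to 2 when single replicates were dropped. For the interaction at 6 mg/kg the number, 0, was 1 with DESeq2 for liver against either brain region, and 0 to 1 for liver against prefrontal cortex with a replicate left out. For vehicle striatum against prefrontal cortex, 3 members became 1 to 2 with a replicate left out. The comparisons not named here kept their number of members within 1.5 times under every alternative run, and no member called in edgeR changed sign. Alas1, called at 6 mg/kg by DESeq2 and in 1 edgeR fit with a replicate left out, had a log2 fold change of -0.08 (SE 0.419) with 0.1 mg/kg as reference.

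The Nr1i2 log2 fold change at 6 mg/kg lay between 0.48 and 0.72 over the alternatives and between 0.61 and 0.80 with a replicate left out. Of all genes, 363 passed in the liver at 6 mg/kg, 1138 with DESeq2, 241 without a filter, 125 with an offset for GC and length, 13 for the 2 groups alone, 5 against 0.1 mg/kg, and 3 to 1302 with a replicate left out.

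Animal numbers recur across tissues, but the labels do not say that a number marks 1 mouse. Deviations of same-numbered libraries correlated at 0.00635 on average for liver and prefrontal cortex, 0.0052 for liver and striatum and 0.113 for striatum and prefrontal cortex. Above 0.1 were 2 of 20, 2 of 20 and 12 of 21 such pairs, in that order. With the animal number as a replicate block, 0 members passed in each interaction. Of the 7 genes with enough counts in both tissues, 7 passed in vehicle liver against prefrontal cortex (83.2% of all genes) and against striatum (81.5%), and 4 in vehicle striatum against prefrontal cortex, where Ncoa1 joined (adjusted p 0.0432, with 23.9% of all genes passing). In brain, 19 counts of Nr1h4 in prefrontal cortex and 35 in striatum were too few to compare doses.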
